A study of Rattus norvegicus with 2 samples.

Results

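The genes of fatty acid oxidation and the targets of the peroxisome proliferator-activated receptors (PPARs) were taken by name from the protein-coding tables of rat myocardium: 33 genes of 13706 with at least 1 read in either library, all 33 listed in both. The KXH library came from spontaneously hypertensive rats, an inbred strain with high blood pressure, that received a high dose (9.6 g/kg) of the herbal Jiangya Kangxian formula into the stomach over 12 weeks. The water library came from rats of the same strain that received distilled water for the same time. There was 1 library per group, and the labels give neither the age of the rats nor whether a library was 1 animal or a pool. No strain with normal blood pressure and no untreated group is analysed here.

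Heart muscle draws most of its energy from long-chain fatty acids. These are released from circulating triglyceride, bound and activated to acyl-CoA in the cell, carried into mitochondria as acylcarnitines, and shortened step by step in beta-oxidation, whose electrons pass to the respiratory chain. PPARs are nuclear receptors that bind fatty acids and, paired with a retinoid X receptor, switch on genes for uptake, oxidation, storage and uncoupling. They bind a direct repeat of the sequence AGGTCA.

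Depth was 14.1 M protein-coding reads under KXH and 15.1 M under water (M, 1000000), where each name stands for its library. RPKM, the deposited level, is reads per kilobase of gene per 1000000 reads of that table, which adjusts for gene length. Counts are headed as unique reads, so a gene with near-identical copies may be undercounted beside other genes. With 1 library per group no difference between the treatments could be tested. Ratios of KXH over water carry 95% intervals computed from the reads alone, which leave out animal-to-animal variation, and "higher" and "lower" describe these 2 libraries. A ratio at least 1.2-fold from 1 was called. In bulk tissue, fewer cells of a type and less RNA per cell cannot be told apart.

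Of the 33 genes, 27 had a promoter window in the RefSeq-derived table of the GRCr8 assembly, which is another build than the rn6 named for these libraries. Those of Lpl, Cpt1b, Acadl, Acaa2, Decr1 and Ppard were not matched. The windows of 300 bases run from 250 bases before to 50 after the annotated start. They are shown for the uncoupling proteins Ucp3 and Ucp2, whose ratios lay near opposite ends of the list, for Angptl4, which had the lowest ratio, for Acadvl, which holds a pair of AGGTCA matches like Ucp3, and for Hadha, which starts head to head with its partner Hadhb. Capitals mark AGGTCA on either strand.
Ucp3 (chr1:164227660-164227959, plus strand): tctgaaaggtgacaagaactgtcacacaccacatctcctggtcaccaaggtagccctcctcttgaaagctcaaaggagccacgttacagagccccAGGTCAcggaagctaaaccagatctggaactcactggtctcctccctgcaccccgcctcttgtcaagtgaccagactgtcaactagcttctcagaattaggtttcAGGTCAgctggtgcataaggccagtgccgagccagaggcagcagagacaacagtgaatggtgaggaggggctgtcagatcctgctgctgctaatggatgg
Ucp2 (chr1:164251123-164251422, plus strand): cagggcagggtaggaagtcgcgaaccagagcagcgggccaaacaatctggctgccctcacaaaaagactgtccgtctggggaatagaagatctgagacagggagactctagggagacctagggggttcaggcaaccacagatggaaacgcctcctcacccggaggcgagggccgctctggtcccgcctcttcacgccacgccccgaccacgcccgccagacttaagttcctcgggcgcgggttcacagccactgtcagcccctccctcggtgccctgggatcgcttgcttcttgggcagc
Angptl4 (chr7:15258632-15258931, minus strand): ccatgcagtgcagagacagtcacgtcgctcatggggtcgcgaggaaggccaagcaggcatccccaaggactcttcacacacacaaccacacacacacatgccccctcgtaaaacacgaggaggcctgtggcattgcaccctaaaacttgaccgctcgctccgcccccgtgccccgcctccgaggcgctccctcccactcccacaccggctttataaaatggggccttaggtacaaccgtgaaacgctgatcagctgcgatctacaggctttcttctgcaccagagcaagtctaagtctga
Acadvl (chr10:55236656-55236955, minus strand): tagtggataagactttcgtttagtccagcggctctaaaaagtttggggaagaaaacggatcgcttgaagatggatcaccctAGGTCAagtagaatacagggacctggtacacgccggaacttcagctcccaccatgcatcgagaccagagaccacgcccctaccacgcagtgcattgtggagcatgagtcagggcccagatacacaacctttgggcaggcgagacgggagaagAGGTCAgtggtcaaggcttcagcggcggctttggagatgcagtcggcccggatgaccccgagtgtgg
Hadha (chr6:31907551-31907850, plus strand): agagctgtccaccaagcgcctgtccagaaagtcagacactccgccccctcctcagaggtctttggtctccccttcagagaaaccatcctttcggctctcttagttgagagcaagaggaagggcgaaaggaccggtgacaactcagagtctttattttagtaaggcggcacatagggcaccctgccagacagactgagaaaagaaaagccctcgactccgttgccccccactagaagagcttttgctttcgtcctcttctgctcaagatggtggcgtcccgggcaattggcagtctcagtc

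The direct repeat, AGGTCA followed by any 1 base and AGGTCA again, was searched on both strands and was found in none of the 27 genes' windows, while 0.054% of all 33469 windows in the table hold it. The single unit AGGTCA, which is contained in the repeat, was found in 8 of the 27 genes (29.6%) and in 16.2% of all windows. The first share counts genes, which had 28 windows, and the second counts windows. Ucp3 held AGGTCA 155 and 50 bases before the start, and Acadvl 169 and 17 bases before the start. Echs1, Eci1, Plin5, Slc27a1, Eci2 and Hadhb held 1 match each, those of Eci2 and Hadhb lying 17 and 42 bases past the start. The windows of Hadha and Hadhb share 200 of their 300 bases. These matches describe letters in a short window and say nothing of receptor binding.

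The fatty acid oxidation genes lay close together in the 2 libraries. The median log2 ratio over the 33 genes was 0.03, beside -0.02 over the 10467 tested genes, those that averaged 1 RPKM or more, as all 33 did. None was at least 1.2-fold higher in the KXH library, where 7.5% of all tested genes were, and 2 were at least 1.2-fold lower, Ucp3 and Angptl4, where 12.1% of all tested genes were. At 1.1-fold 2 genes of the list were higher and 3 lower, beside 18.5% and 25.3% of all tested genes, and at 1.5-fold none was in either direction, beside 1.39% and 2.48%. Called genes were thus no larger a share of this list than of all tested genes. The ratio lay within 1.1-fold of 1 for 28 of the 33 (84.8%), beside 56.1% of all tested genes. Depth narrows ratios, so the same was read among genes with at least 1000 reads in sum, where 27 of 30 genes of the list and 74% of all such genes lay within 1.1-fold. None of those 30 was called at 1.2-fold, beside 2.12% of such genes higher and 3.51% lower. This floor leaves out shallow genes but does not equalise depth above it, and no match by depth was made.

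Ratios were above 1 for 17 genes and below 1 for 16, beside 45% and 55% of all tested genes. With trimmed-mean scaling of the reads (edgeR) the split was 22 above and 11 below, because Lpl, Acads, Hadh, Hadhb and Ppard pass to the other side of 1. The counting interval lay wholly above 1 for 10 genes (30.3%), beside 11.2% of all tested genes, and wholly below 1 for 4 (12.1%), beside 16.3%. Intervals narrow with depth, and most genes of the list had many reads. Among genes with at least 1000 reads in sum these were 10 and 3 of 30 genes of the list, beside 15.4% and 21.3%. Here too the floor does not equalise depth above it. Together the 33 genes took 2.16% of the protein-coding reads under KXH and 2.11% under water. In both libraries the levels ran from Angptl4 at the low end to the fatty acid binding protein gene Fabp3 at the high end.

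**Figure D1:**
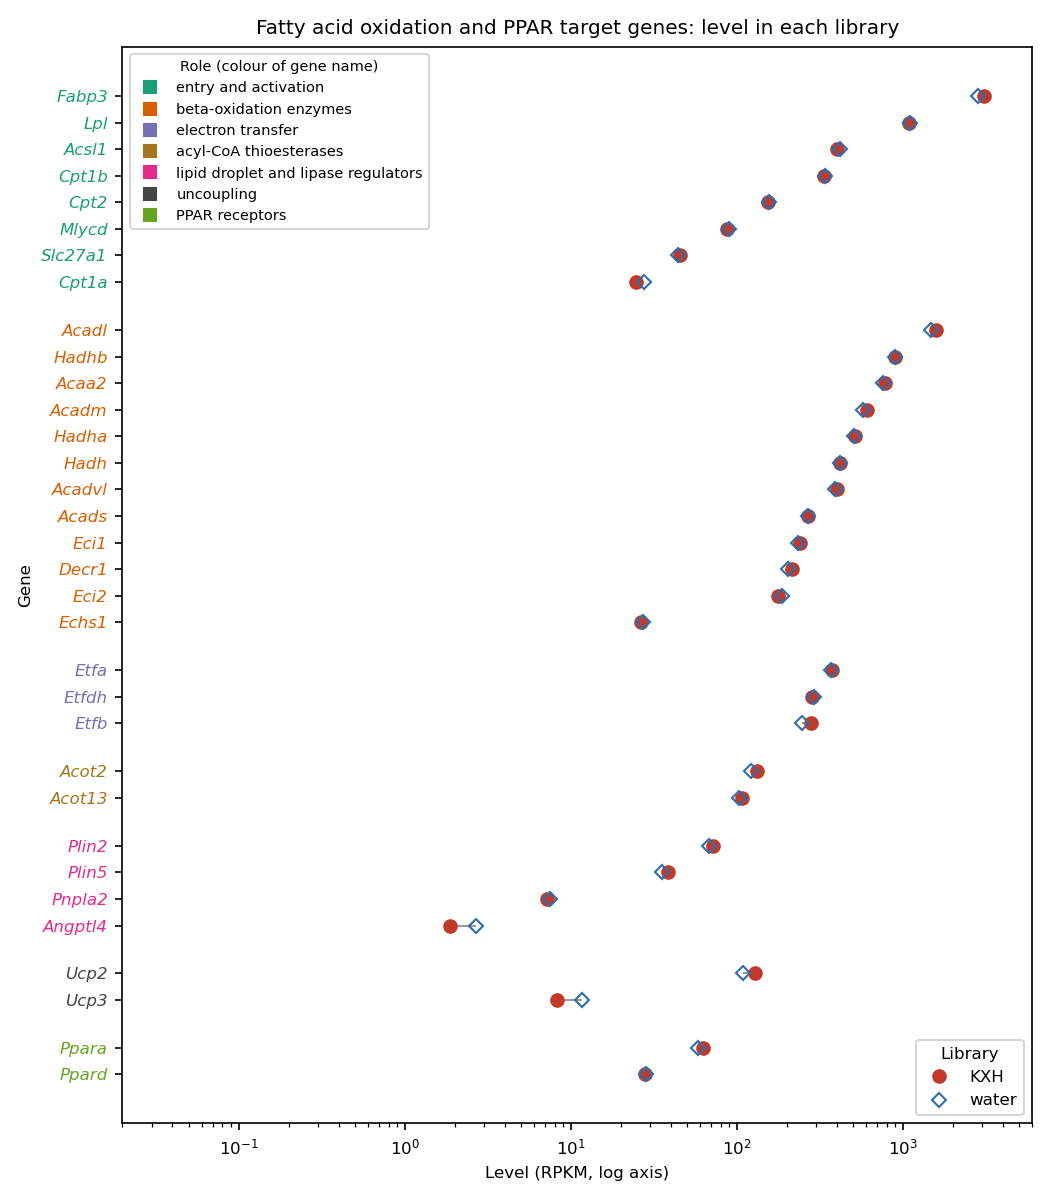
Level of each gene in RPKM on a log axis, as a filled circle for the KXH library and an open diamond for the water library, grouped by role. The symbols nearly coincide for most genes, and those of Ucp3 (8.32 RPKM under KXH and 11.8 under water) and Angptl4 (1.89 RPKM under KXH and 2.69 under water) stand apart.

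Entry and activation genes come first along the route of a fatty acid. Fabp3, which carries fatty acids through the cytosol of muscle cells, stood at 3102 RPKM under KXH and 2833 under water, a ratio of 1.095 (interval 1.08 to 1.11). It ranked 14th among all genes under KXH and 16th under water. Lipoprotein lipase (Lpl), which frees fatty acids from triglyceride at the vessel wall, was at 1096 RPKM under KXH and 1100.0 under water, and its interval of 0.984 to 1.01 includes 1. Acyl-CoA synthetase Acsl1, which activates fatty acids, was at 401 RPKM under KXH and 418 under water, 1.04-fold lower (1.02 to 1.06). Its interval lay below 1, though the difference was small.

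The carnitine palmitoyltransferases move acyl groups into mitochondria. The muscle isoform Cpt1b was at 334 RPKM under KXH and 340.2 under water and the inner-membrane enzyme Cpt2 at 154 RPKM under KXH and 157 under water, both with intervals that include 1. The liver isoform Cpt1a was at 24.6 RPKM under KXH and 27.6 under water, a ratio of 0.890 (0.831 to 0.954), on 1495 reads under KXH and 1804 under water. Cpt1b thus stood at 13.6 times the level of Cpt1a in the KXH library and 12.3 times in the water library. Malonyl-CoA decarboxylase Mlycd, which removes the inhibitor of the Cpt1 enzymes, was at 87.4 RPKM under KXH and 90.1 under water, and the fatty acid transporter Slc27a1 at 45.6 RPKM under KXH and 44.0 under water. Neither interval excluded 1. Over these 8 genes the median log2 ratio was -0.03, with 2 ratios above 1 and 6 below. It was -0.01 with trimmed-mean scaling and 0.005 once a trend of the ratio on gene length was removed, so its sign is not firm.

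All 12 beta-oxidation enzymes lay within 1.1-fold of the water level. Their median log2 ratio was 0.03, with 7 ratios above 1 and 5 below, and none was called. Among the acyl-CoA dehydrogenases, which take the first step for chains of different length, the long-chain enzyme Acadl was the most abundant, at 1588 RPKM under KXH and 1476 under water. It was also the highest in ratio, at 1.08 (1.06 to 1.09). The medium-chain enzyme Acadm was at 605 RPKM under KXH and 578 under water, 1.05 times the water level (1.02 to 1.07). The very-long-chain enzyme Acadvl was at 399 RPKM under KXH and 389 under water, and the short-chain enzyme Acads at 268.7 RPKM under KXH and 268.9 under water, both with intervals that include 1. Among the 4 dehydrogenases, those 2 with intervals above 1 were the most abundant.

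The later steps followed the same pattern of small differences. The trifunctional protein handles long chains on the inner membrane. Its alpha subunit Hadha was at 519 RPKM under KXH and 507 under water (ratio 1.02, 1.003 to 1.045), on 18305 reads under KXH and 19203 under water. The beta subunit Hadhb was at 893 RPKM under KXH and 901 under water (0.991, 0.974 to 1.01). The thiolase Acaa2, which splits off acetyl-CoA, was at 777 RPKM under KXH and 759 under water, with an interval of 1.00 to 1.05 that lay above 1 before rounding. The short-chain hydroxyacyl-CoA dehydrogenase Hadh was at 418.4 RPKM under KXH and 418.9 under water. Echs1, the short-chain enoyl-CoA hydratase, was the least abundant of the 12 at 26.4 RPKM under KXH and 27.1 under water, and the next lowest, Eci2, stood at 176 RPKM under KXH and 186 under water.

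Unsaturated fatty acids need auxiliary enzymes. The dienoyl-CoA reductase Decr1 was at 216 RPKM under KXH and 205 under water (ratio 1.06, 1.01 to 1.11), and the isomerase Eci1 at 239.6 RPKM under KXH and 234 under water (1.02, 0.974 to 1.07). The related isomerase Eci2 was at 176 RPKM under KXH and 186 under water, a ratio of 0.946 (0.906 to 0.988), and had the lowest ratio of the 12 enzymes. The interval of Eci1 includes 1.

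**Figure D2:**
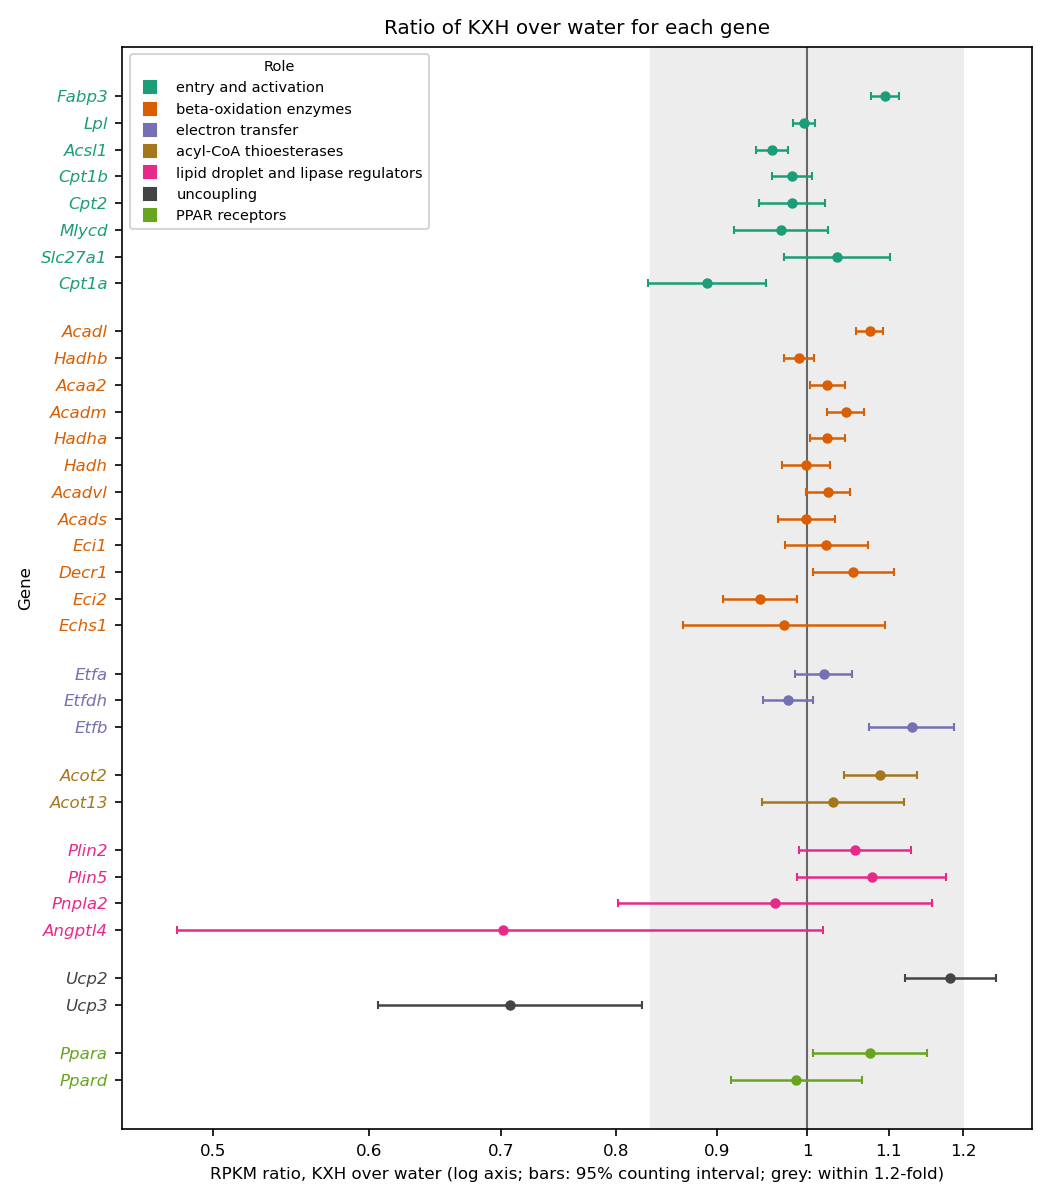
RPKM ratio of KXH over water for each gene on a log axis, with 95% counting intervals as bars, grouped and coloured by role, and the range within 1.2-fold shaded. Only Ucp3 and Angptl4 have ratios (0.708 and 0.702) outside the shading, and the interval of Angptl4 reaches past 1.

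Electron transfer flavoprotein takes electrons from the dehydrogenases. Its beta subunit Etfb was at 281 RPKM under KXH and 248 under water, a ratio of 1.13 (1.08 to 1.19), the highest among the enzymes of oxidation and electron transfer. Its alpha subunit Etfa was at 374 RPKM under KXH and 367 under water, and the oxidoreductase Etfdh, which passes the electrons to ubiquinone, at 284 RPKM under KXH and 291 under water. Both of these intervals include 1. The mitochondrial thioesterases release free fatty acid from acyl-CoA. Acot2 was at 132 RPKM under KXH and 122 under water (1.09, 1.04 to 1.14), and Acot13 at 107 RPKM under KXH and 104 under water (1.03, 0.949 to 1.12). Reads of Acot2 can be confused with those of its near-identical paralog Acot1, which had 10 reads under KXH and 8 under water.

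The lipid droplet genes had wider intervals. Perilipin 2 (Plin2), a coat protein of droplets in many cell types, was at 71.6 RPKM under KXH and 67.7 under water, and perilipin 5 (Plin5), which ties droplets to mitochondria in oxidative tissue, at 38.5 RPKM under KXH and 35.7 under water. The intervals were 0.991 to 1.13 and 0.989 to 1.18. The triglyceride lipase Pnpla2 was at 7.24 RPKM under KXH and 7.51 under water on 227 reads under KXH and 253 under water, with an interval of 0.802 to 1.16. All 3 of these intervals include 1.

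Angptl4, a secreted inhibitor of lipoprotein lipase and a PPAR target, had 49 reads under KXH and 75 under water. At 1.89 RPKM under KXH and 2.69 under water it was the least abundant gene of the list, and it was called as 1.43-fold lower. The interval of that fold ran from 0.981 to 2.09 and includes 1, so a ratio of 1 lies within its counting error. With 1 added to each RPKM value its log2 ratio was -0.35 instead of -0.51.

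The uncoupling proteins, carriers of the inner mitochondrial membrane, went in opposite directions. Ucp3, the muscle form and a PPAR target, was at 8.32 RPKM under KXH and 11.8 under water on 278 reads under KXH and 422 under water, 1.41-fold lower (1.21 to 1.65). Of all tested genes, 3.67% had a lower ratio. Ucp2, which is made in many tissues, was at 129 RPKM under KXH and 109 under water, a ratio of 1.18 (1.12 to 1.25) on 2893 reads under KXH and 2629 under water. That was the highest ratio of the 33 genes and just short of the 1.2-fold call, which it passed with median-of-ratios scaling (DESeq2). Of all tested genes, 91.2% had a lower ratio. The promoter windows of these neighbours on chromosome 1 differ in that Ucp3 holds AGGTCA and Ucp2 does not, and no role of that difference was tested.

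The receptor gene Ppara, the main PPAR of oxidative tissue, was at 62.8 RPKM under KXH and 58.4 under water, with a ratio of 1.08 (1.01 to 1.15). Ppard, which is present in most tissues, was at 28.1 RPKM under KXH and 28.4 under water, and its interval of 0.915 to 1.07 includes 1. Ppara was thus the more abundant receptor in both libraries, and neither was called.

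**Figure D3:**
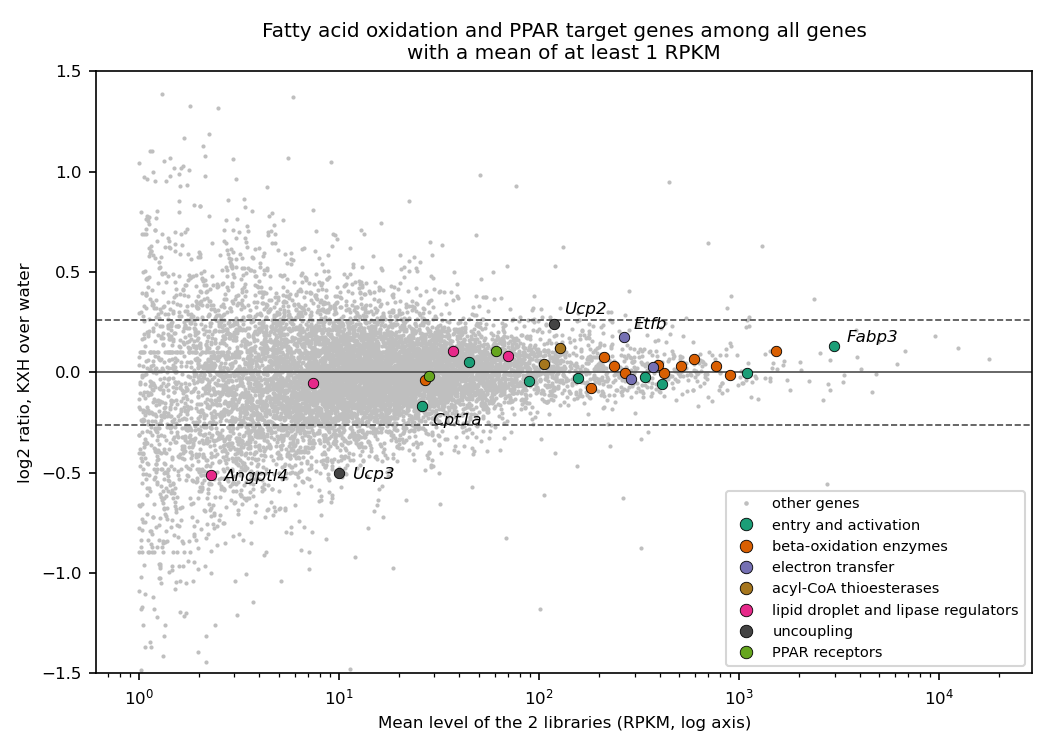
Log2 ratio of KXH over water against the mean level in RPKM (log axis) for genes averaging 1 RPKM or more, in grey, with the 33 genes coloured by role and dashed lines at 1.2-fold. Most of the coloured points lie between the dashed lines, and Ucp3 and Angptl4 lie below them at log2 ratios of -0.50 and -0.51. Genes past 1.5 on the log2 axis or with 0 reads in a library are not drawn.

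Pairs of genes were compared inside each library, which removes library scaling. It does not remove a trend of the ratio on gene length where partners differ in length, as Acot2 (2366 bases) and Acot13 (743 bases) do. No pair was read with that trend removed. Of 10 pairs, 2 had intervals above 1, 3 below 1 and 5 that include 1. The read ratio of Ucp3 to Ucp2 in the KXH library was 0.599 times that in the water library (0.508 to 0.705). Ucp2 stood at 15.5 times the RPKM of Ucp3 in the KXH library and 9.25 times in the water library. This was the only pair whose balance moved by more than 1.2-fold with an interval that excludes 1.

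The other pairs moved less. Cpt1a relative to Cpt1b was 0.906 times the water value (0.842 to 0.975), and Etfa relative to Etfb 0.903 times (0.851 to 0.958). Hadha relative to Hadhb was 1.03 times (1.01 to 1.06), a pair whose promoter windows overlap, and Eci1 relative to Eci2 1.08 times (1.01 to 1.15). Ppara relative to Ppard was 1.09 times (0.985 to 1.21) and Angptl4 relative to Lpl 0.704 times (0.481 to 1.02), so neither balance was set apart from 1 by its counts. The same held for Acot2 to Acot13, Plin5 to Plin2 and Plin5 to Pnpla2, whose values were 1.06, 1.02 and 1.12.

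**Figure D4:**
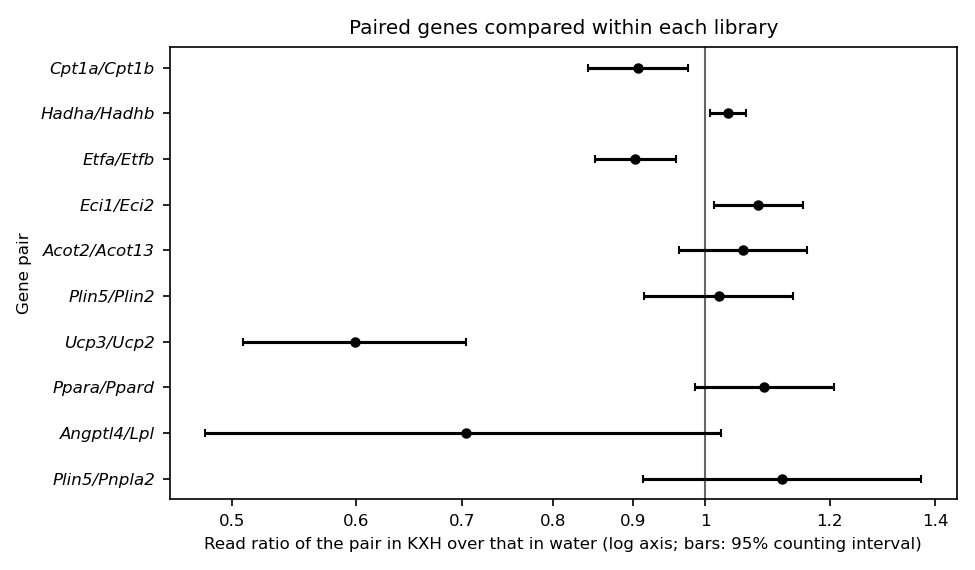
Read ratio of each gene pair in the KXH library divided by the same in the water library, on a log axis with 95% counting intervals as bars. Ucp3/Ucp2 lies farthest from 1, at 0.599.

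Gene length moved with these ratios. Among the 11 shortest genes of the list (651 to 1616 bases), among them Fabp3, Etfb and Ucp2, 9 had ratios above 1, beside 52.6% of all tested genes in that range of length. Among the 11 of middle length 5 did, beside 46.5%, and among the 11 longest (2231 to 4328 bases), among them Cpt1a, Acsl1 and Ucp3, 3 did, beside 41.5%. The medians were 0.04, -0.001 and -0.03, beside 0.01, -0.01 and -0.03 for all tested genes in the same ranges of length. With the length trend removed the log2 ratio of Fabp3 was 0.07 instead of 0.13, that of Etfb 0.13 instead of 0.18 and that of Cpt1a -0.11 instead of -0.17. Ucp3 and Ucp2, at -0.47 and 0.24, hardly moved from -0.50 and 0.24. Split by mean level instead, 4 of the 11 least abundant genes, 6 of the middle 11 and 7 of the 11 most abundant had ratios above 1, beside 44.4%, 58.3% and 53.9% of all tested genes in the same ranges.

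Other genes of fatty acid metabolism were read from 8 further lists that hold 119 listed genes, 103 of them tested. Of these, 6 were called higher (5.83%) and 5 called lower (4.85%), shares below the 7.5% and 12.1% of all tested genes, and their median log2 ratio was -0.002, beside -0.02. The other mitochondrial oxidation and carnitine genes had none called among 14, with the complex I assembly factor and dehydrogenase Acad9 at 45.7 RPKM under KXH and 41.5 under water (interval 1.03 to 1.18) and the brain isoform Cpt1c at 2.06 RPKM under KXH and 1.79 under water (0.824 to 1.60) farthest from 1. Of 15 peroxisomal genes, the transporter Abcd3 was called, at 37.4 RPKM under KXH and 46.1 under water, 1.23-fold lower (1.16 to 1.31).

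Uptake and storage genes had single called members. Of 13 further uptake and activation genes, the scavenger receptor Cd36, which brings fatty acids across the cell membrane, was called as 1.83-fold lower (1.78 to 1.88), and the next farthest from 1 was the synthetase Acsl3 at 1.15 (0.962 to 1.37). Cd36 thus lay far below Fabp3, Slc27a1 and Lpl in ratio. Of 12 further droplet and lipolysis genes, the droplet protein Cidea was called, at 38.8 RPKM under KXH and 47.4 under water, 1.22-fold lower (1.08 to 1.39). The phosphatidate phosphatase Lpin1 was 1.12-fold lower (1.06 to 1.18).

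Genes listed here as other PPAR targets went both ways, with 2 called higher and 2 lower among 11. That is 18.2% each way, beside 7.5% and 12.1% of all tested genes. The split depends on how the list was filled, since Cd36, 1.83-fold lower, was read with the uptake genes. The gene lists were also chosen with earlier results of these data known. The pyruvate dehydrogenase kinase Pdk4 was at 129 RPKM under KXH and 179 under water, 1.38-fold lower (1.32 to 1.45). The thioredoxin-binding protein Txnip was at 286 RPKM under KXH and 361 under water, 1.26-fold lower (1.23 to 1.29). The transferrin receptor Tfrc was at 23.2 RPKM under KXH and 17.0 under water, which is 1.36-fold higher (1.26 to 1.47), and the pantetheinase Vnn1 at 57.1 RPKM under KXH and 47.5 under water, just past the call, with an interval of 1.12 to 1.28.

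Genes of ketone body use had 3 called higher among 8 (37.5%) and none lower, beside 7.5% and 12.1% of all tested genes, with a median log2 ratio of 0.14. For 1 of the 3, Acat2, the interval includes 1, and this list too was chosen with earlier results known. The mitochondrial 3-hydroxybutyrate dehydrogenase Bdh1 was at 61.4 RPKM under KXH and 49.7 under water, a ratio of 1.23 (1.14 to 1.33). The monocarboxylate transporter Slc16a7 had a ratio of 1.31 (1.02 to 1.69) on 143 reads under KXH and 117 under water. The cytosolic thiolase Acat2, at 52 reads under KXH and 40 under water, had an interval of 0.907 to 2.16. Of the 8 ratios 6 were above 1 and 2 below. The most abundant gene of the list, Oxct1, was at 800 RPKM under KXH and 831 under water. Its ratio was 0.963 (0.949 to 0.976), with an interval below 1. The summed level of the list was 1535 RPKM under KXH and 1506 under water. Of 12 genes of malonyl-CoA and fatty acid synthesis none was called, and Mecr and Mid1ip1 were farthest from 1, at 1.16 (1.04 to 1.29) and 1.14 (1.05 to 1.23). Of 21 receptor partners and coregulators the coactivator Ppargc1b was called, at 32.8 RPKM under KXH and 26.2 under water (1.25, 1.16 to 1.35), and Ppargc1a had a ratio of 1.12 (1.05 to 1.19).

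**Figure D5:**
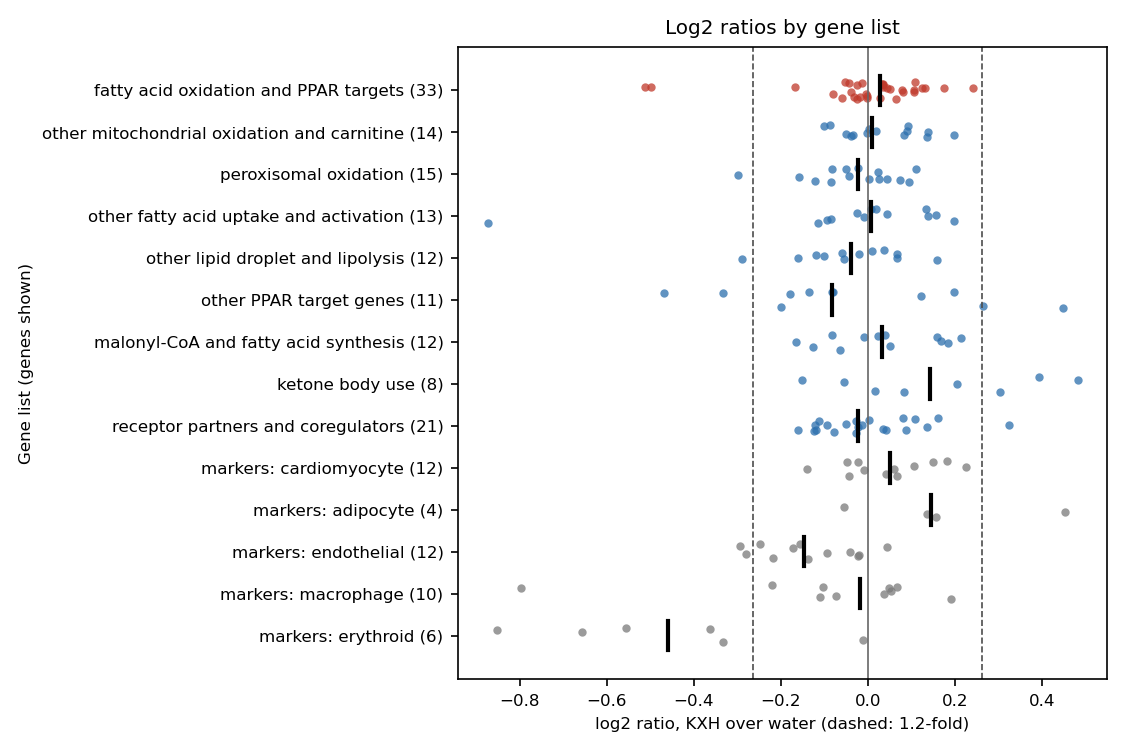
Log2 ratio of KXH over water for each tested gene, by list, with a black bar at the median and dashed lines at 1.2-fold; the number of genes drawn is given beside each list. The 33 fatty acid oxidation and PPAR target genes centre on 0.03, endothelial markers on -0.15, and all erythroid markers drawn lie below 0. LOC287167, with 0 reads in the KXH library, is not drawn, and some genes stand on more than 1 list.

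Markers of cell types were read beside these genes. The labelled tissue was borne out by cardiomyocyte markers, all 12 of which stood at or above 598 RPKM under KXH and 607 under water, led by myoglobin (Mb) at 18238 RPKM under KXH and 17406 under water. Their median log2 ratio was 0.05, with 7 ratios above 1 and 5 below. Of 12 endothelial markers 11 had ratios below 1, with a median of -0.15, and their summed level was 661 RPKM under KXH and 729 under water, with endoglin (Eng) the most abundant by its mean, at 95.5 RPKM under KXH and 96.9 under water. Flt1 and Tie1, receptors of endothelial cells, were called, as 1.23-fold (1.18 to 1.27) and 1.22-fold lower (1.15 to 1.29). Macrophage markers, 5 of 10 above 1, summed to 338 RPKM under KXH and 349 under water, led by Lyz2 at 148 RPKM under KXH and 159 under water. The lysosomal protein gene Cd68 was the only one of them called, at 5.34 RPKM under KXH and 9.27 under water, 1.74-fold lower (1.34 to 2.27). Erythroid markers, all 7 tested below 1, summed to 2275 RPKM under KXH and 3360 under water. They were led by the globin Hbb at 2234 RPKM under KXH and 3283 under water. Of the 7, 6 were called lower (85.7%), beside 12.1% of all tested genes. The interval lay wholly below 1 for 4 of the 7 and included 1 for 3. Among those called, LOC287167 had 0 reads under KXH and 101 under water. Of 4 tested adipocyte markers 3 had ratios above 1, with a median log2 ratio of 0.15. Complement factor D (Cfd) was the only one called, with 163 reads under KXH and 128 under water, 1.37-fold higher (1.08 to 1.74). The adipocyte genes Adipoq and Retn had no listed reads, and Plin1, Cidec and Ucp1 had 1 read each under KXH and none under water. The most abundant gene on that list, Fabp4, which endothelial cells also make, was at 399 RPKM under KXH and 359 under water. The part of these cell types in the ratios of the 33 genes was not tested.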

How the data were processed

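The comparison was between 1 KXH and 1 water library of rat myocardium, grouped by the agent in the labels. Libraries were made from total RNA with a TruSeq kit, per the labels' protocols. The deposited protein-coding tables give a whole count of reads per gene, headed as unique, and an RPKM value computed by the authors from the count, the listed length and the total of that table, per the file headers. The submitters' processing notes name Bowtie 0.12.2 and rn6 with no role. Annotation, counter, strand use and filters were not given in the sources used here. Genes missing from a table count as 0 reads. The lncRNA tables were used only for an alternative total.

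The members and gene lists were chosen with earlier results of these data known. All 33 members are named. Of the other lists of the pathway, genes called at 1.2-fold, or otherwise the 2 farthest from 1, are named, and of the marker lists the most abundant gene. Intervals are Clopper-Pearson for ratios of a gene and exact conditional ones for pairs, at 95%. They cover counting error only, because there was 1 library per group. No molecular identifiers show that reads are separate molecules, so the intervals may be too narrow. Acsl3, Lpin1, Oxct1, Ppargc1a and single further markers were named, and the splits by length and level were made, after the values were seen. No test between the treatments was possible, so the count models of edgeR and DESeq2 gave scaling factors only. Each symbol had 1 row, so summing rows of a symbol changed nothing. Ratios and intervals were checked on simulated reads with 200 changed genes. Those reads held counting error only, so the check says nothing of variation between animals or libraries. The software was scipy 1.17.1, numpy 2.4.6, pandas 2.3.3, matplotlib 3.10.9, Python 3.11.15, R 4.3.3, edgeR 4.0.16 and DESeq2 1.42.0.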

Additional observations from a re-analysis of the deposited data

How the results depend on the processing

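Ucp3 and Angptl4 were lower under each of the 7 other scalings, pseudocounts and corrections tried for single genes, with log2 ratios from -0.50 to -0.45 for Ucp3 and from -0.51 to -0.35 for Angptl4. Of the 33 genes, 28 kept the side of 0 with trimmed-mean scaling, which moves the median of all tested genes by 0.02, and 25 with the length trend removed. No gene of the list was called higher except 1, Ucp2, with median-of-ratios scaling. At a fold of 1.1, 2 genes were higher, and by the counting interval 10 were higher and 4 lower. At a mean of at least 5 RPKM 1 gene was called lower, since Angptl4 falls below that level, and at a fold of 1.5 there was 0. Over all tested genes, 785 were called higher and 1269 lower. These counts were 1882 and 2733 with no filter on low values, 398 and 533 at a mean of at least 5 RPKM, 1940 and 2651 at a fold of 1.1, and 146 and 260 at a fold of 1.5. The median over the 33 genes ran from 0.02 to 0.05 over these alternatives, and their mean was -0.003. Low read numbers limit Angptl4, Pnpla2 and Ucp3 most. No paired analysis was possible because there was 1 library per group.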
